A study of Mus musculus with 4 samples.

Results

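The cell cycle and p53 response genes are 45 genes named by symbol, of the 22609 symbols counted in each library of mouse hippocampus after global cerebral ischemia (GCI). They comprise 34 proliferation genes, 4 cyclin-dependent kinase inhibitors and a group of 7 genes made up of p53, its targets and stress response genes. The proliferation genes were further divided into 12 genes of DNA replication and S phase, 10 genes of mitosis, 7 cyclins and kinases of S phase and mitosis, and 5 D-type cyclins and their kinases. The list was drawn up by name and not by the direction of any change, though with earlier results of these data known. Of the 45 genes, 38 had enough counts to be tested.

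RNA was measured in 4 hippocampus libraries, 2 from FLOX+GCI mice and 2 from FBN-ARO-KO+GCI mice. Both groups were females aged 3 to 5 months, were ovariectomized 1 week before ischemia, and had the common carotid arteries closed for 20 min and were studied after 24 h of reperfusion. FBN-ARO-KO mice are a Cre/LoxP knockout of Cyp19a1, which encodes the estrogen-making enzyme aromatase, with Cre driven by the CaMKIIα promoter in forebrain excitatory neurons, so that other hippocampal cells keep the gene. FLOX mice are the controls. Every library was ischemic, so the comparison asks whether the knockout altered the genes after ischemia and not what ischemia did to them. The sources do not state whether the libraries of a group came from separate mice, and the p-values then measure only the spread between libraries, which may be technical.

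A dividing cell passes through a growth phase (G1), DNA synthesis (S phase) and mitosis, each driven by cyclins bound to cyclin-dependent kinases. Kinase inhibitors such as p21, the product of Cdkn1a, hold the cycle back, and the transcription factor p53 raises p21 and other targets after DNA damage. Mature neurons have left the cycle, so in the adult hippocampus dividing cells are mainly progenitors of the dentate gyrus and glia, and after ischemia reactive astrocytes and microglia can also enter it.

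The FLOX+GCI libraries are called controls and the FBN-ARO-KO+GCI libraries knockouts, with replicates 1 and 2 given in that order. Reads counted on genes numbered 24774433 and 24333396 in the controls and 33076795 and 30114003 in the knockouts. At these depths 3 counts, taken as the smallest level that can be shown, equal between 0.0905 and 0.122 CPM (reads of a gene relative to the TMM-scaled library total), for counting error only. Cyp19a1 itself had 4 and 1 counts in the controls and 2 and 2 in the knockouts, too few to check the knockout. Markers of neurons led by Camk2a summed to between 11520 and 12480 CPM in the 4 libraries, above every other marker list. In such bulk RNA, fewer cells of a type and less RNA per cell cannot be told apart.

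No gene of the list passed edgeR's quasi-likelihood test between genotypes at an adjusted p of 0.05, and the smallest adjusted p was 0.238. Among all 14527 genes tested, 2 passed (0.0138%). At an unadjusted p under 0.05 stood 5 of the 38 genes (13.2%), against 16.5% of all genes tested. Cdkn1b and Ccng1 were higher in FBN-ARO-KO+GCI (2 genes, 5.26%, where 8.72% of all genes tested were higher at that level), and Mcm2, Gadd45b and Gadd45g were lower (3 genes, 7.89%, against 7.82% of all genes). The shares of the list were thus near or below the background. The number at this level changed when single libraries were left out, but the share of all genes at this level is not at hand for those fits. edgeR's likelihood ratio test called 1 gene of the list, Gadd45g. DESeq2 called 0 of the 6 genes of the list to which it gave an adjusted p. Gadd45g was not among these 6, and its unadjusted p by DESeq2 was 0.00032.

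The FBN-ARO-KO+GCI libraries both lay above both FLOX+GCI libraries for 6 of the 38 genes (15.8%), against 25.9% of all genes tested. These were Rrm1, Rrm2, Ccnd2, Cdkn1b, Mdm2 and Ccng1. Both lay below for 7 genes (18.4%), against 25.8% of all genes, and these were Mcm2, Tyms, Ccna2, Cdk4, Gadd45b, Gadd45g and Myc. The genotypes overlapped in the other 25 genes. The median log2 fold change, FBN-ARO-KO+GCI relative to FLOX+GCI, was -0.01 for the 27 proliferation genes tested, -0.00 for the 4 kinase inhibitors and -0.09 for the 7 p53 and stress genes, beside -0.01 for all genes tested.

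**Figure D1:**
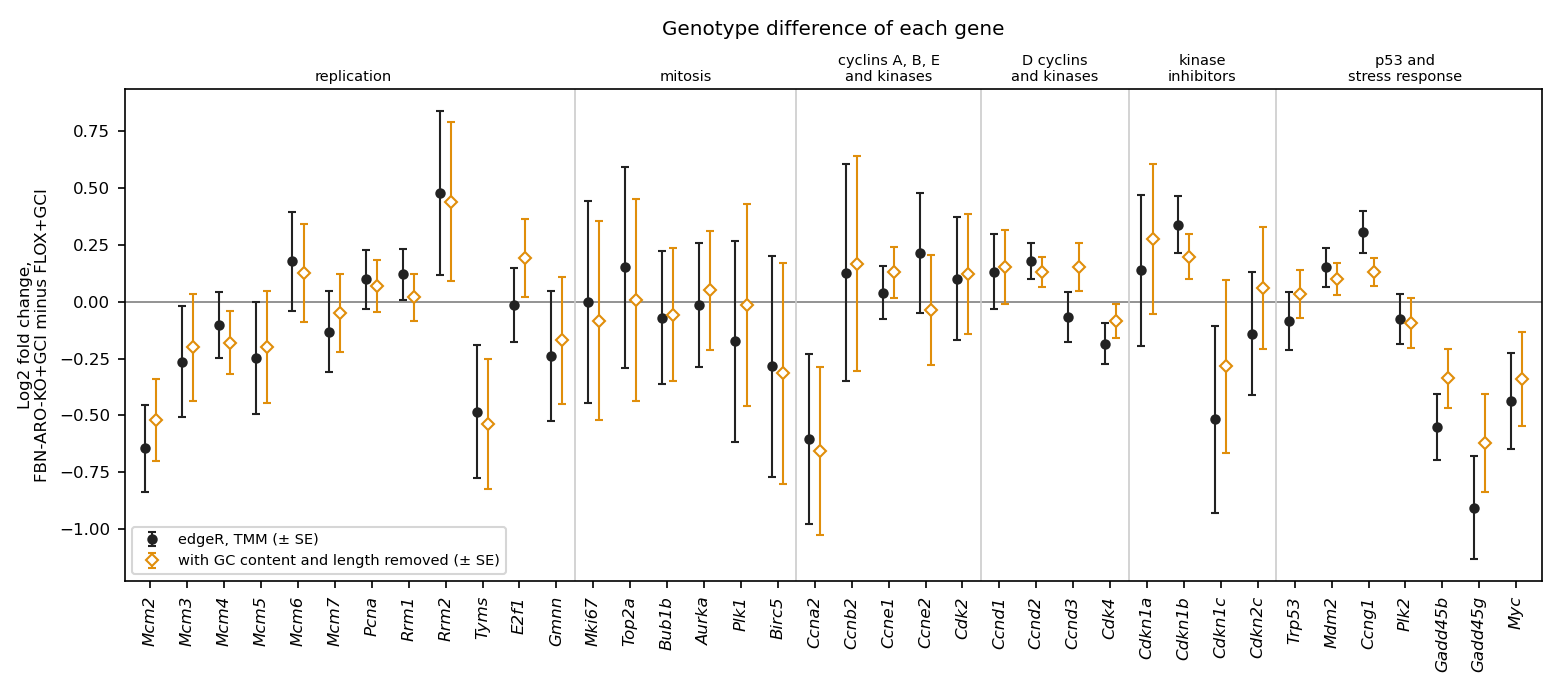
Fitted log2 fold change (vertical axis) of each of the 38 genes tested, FBN-ARO-KO+GCI relative to FLOX+GCI, arranged by role, by edgeR with TMM (filled) and with GC content and length as an offset (open), with bars of 1 standard error. By the first, the lowest value is that of Gadd45g at -0.91, the highest that of Rrm2 at 0.48, and 0 of the 38 genes passed the adjusted p threshold.

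The stress genes of the GADD45 family gave the lowest p-values of the list. Gadd45g (mm9 chr13:51942047-51943837) and Gadd45b (mm9 chr10:80392836-80394949) encode small proteins that are induced by stress and by neuronal activity and that take part in growth arrest, MAP kinase signaling and DNA demethylation. Gadd45g was at 12.2 and 19.1 CPM in the controls and at 9.20 and 7.44 CPM in the knockouts. Both knockout libraries lay below both controls, and the controls differed from each other by more than the knockout libraries did. The means were 15.6 ± 4.88 CPM (SD, n = 2) in FLOX+GCI and 8.32 ± 1.24 CPM in FBN-ARO-KO+GCI. The log2 fold change was -0.91 with a standard error of 0.23 and an adjusted p of 0.238 by edgeR's quasi-likelihood test. Without FLOX+GCI replicate 1 it was -1.19 with an adjusted p of 0.00456, and without FLOX+GCI replicate 2 it was -0.55 with an adjusted p of 0.254. The likelihood ratio test gave an adjusted p of 0.0288.

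Gadd45b was at 14.7 and 18.0 CPM in the controls and at 11.7 and 10.6 CPM in the knockouts. The groups again did not overlap, and the log2 fold change was -0.55 with a standard error of 0.15 and an adjusted p of 0.238. The promoters of Gadd45g and Gadd45b are shown as examples from the GADD45 family. Any part of the promoter letters in the CPM values was not tested. The table of promoters holds 36 of the 45 genes. Its sequences are RefSeq's for GRCm38.p6, a later build than the mm9 of the counts, and give the 250 bases before the transcription start, 5′ to 3′ on the strand of the gene. Capitals mark a CCAAT box (CCAAT) or a TATA box (TATAAA), each searched on both strands. The Gadd45g promoter is at chr13:51846425-51846674 on the plus strand, and the Gadd45b promoter at chr10:80929841-80930090 on the plus strand.
Gadd45g: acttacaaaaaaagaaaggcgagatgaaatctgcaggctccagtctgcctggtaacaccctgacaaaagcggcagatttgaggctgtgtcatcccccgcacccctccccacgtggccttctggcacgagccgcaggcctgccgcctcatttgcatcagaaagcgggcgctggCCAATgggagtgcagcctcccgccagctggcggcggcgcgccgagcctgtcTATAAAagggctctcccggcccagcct
Gadd45b: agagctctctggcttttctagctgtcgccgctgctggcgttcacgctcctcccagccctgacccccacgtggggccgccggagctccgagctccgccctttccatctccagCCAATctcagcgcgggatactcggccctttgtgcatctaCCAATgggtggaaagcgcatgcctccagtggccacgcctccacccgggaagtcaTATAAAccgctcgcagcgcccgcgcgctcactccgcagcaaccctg
Each held a TATA box near the start, at position -27 in Gadd45g and -46 in Gadd45b, and a CCAAT box further up, at position -78 in Gadd45g and at -139 and -100 in Gadd45b, and the marked matches do not overlap in any promoter shown. A TATA box by these letters occurred in 12.4% and a CCAAT box in 33.8% of the 32851 promoters of the table. Such a match describes the letters and does not show that a factor binds there.

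Ccng1 and Mdm2 are transcriptional targets of p53. Ccng1 (mm9 chr11:40562054-40568813) encodes cyclin G1, and its level per kilobase of transcript was 33.5 CPM per kb, which placed it after Plk2 as the most abundant gene of the list on that scale. Ccng1 was at 105.9 and 104.5 CPM in the controls and at 119.3 and 141.1 CPM in the knockouts. The control libraries were close together and both knockout libraries were higher. The log2 fold change was 0.31 with a standard error of 0.09 and an adjusted p of 0.245. Mdm2, the ubiquitin ligase that degrades p53, was at 48.4 and 44.7 CPM in the controls and at 50.4 and 53.02 CPM in the knockouts. Its groups did not overlap, with a log2 fold change of 0.15 and an adjusted p of 0.399. Leaving out 1 library gave 0.18 (without FBN-ARO-KO+GCI replicate 2) to 0.42 for Ccng1 and 0.093 (without FLOX+GCI replicate 2) to 0.21 for Mdm2.

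Trp53, the gene for p53, was at 20.1 and 20.8 CPM in the controls and at 21.0 and 17.5 CPM in the knockouts, where the knockout libraries lay on either side of the controls. Its log2 fold change was -0.09 with a standard error of 0.13. Plk2, a kinase that p53 and neuronal activity both induce, was the most abundant gene of the list per length, at 103 CPM per kb, with 262 and 332 CPM in the controls and 283 and 279 CPM in the knockouts. The control libraries enclosed the knockout libraries and the log2 fold change was -0.08. Myc, a transcription factor that drives growth, was at 5.39 and 7.59 CPM in the controls and at 4.65 and 4.95 CPM in the knockouts. The groups did not overlap, with a log2 fold change of -0.43, a standard error of 0.21 and an adjusted p of 0.344, with the log2 fold change at -0.17 when FLOX+GCI replicate 2 was left out. Of the 7 p53 and stress genes, 2 were thus above and 5 below 0, with the 2 above being p53 targets, Ccng1 and Mdm2.

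**Figure D2:**
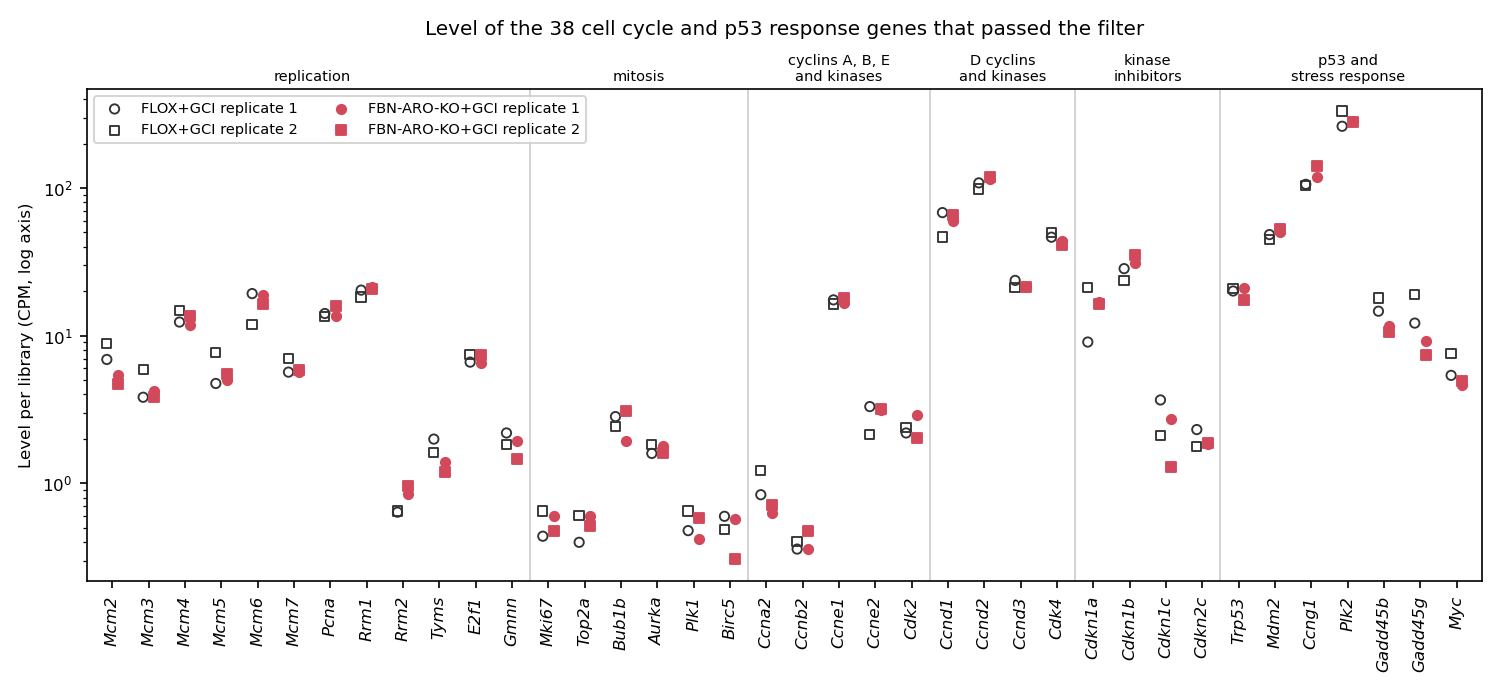
TMM-scaled CPM on a log axis (vertical) of the 38 genes tested in each library, arranged by role, with FLOX+GCI points open and FBN-ARO-KO+GCI points filled. Among the kinase inhibitors and the p53 and stress genes, the groups separate for Cdkn1b, Mdm2, Ccng1, Gadd45b, Gadd45g and Myc, and the FLOX+GCI points of Cdkn1a, at 9.06 and 21.3 CPM, lie on either side of both FBN-ARO-KO+GCI points.

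The kinase inhibitors lay on both sides of 0. Cdkn1a (mm9 chr17:29227924-29237667), the p53 target that encodes p21, had 227 and 525 counts in the controls and 564 and 480 counts in the knockouts, or 9.06, 21.3, 17.0 and 16.4 CPM. The lowest and the highest library were both controls. The means were 15.2 ± 8.65 CPM (SD, n = 2) in FLOX+GCI and 16.7 ± 0.444 CPM in FBN-ARO-KO+GCI, with a log2 fold change of 0.14, a standard error of 0.33 and an adjusted p of 0.853. The direction depended on the control library used, since the log2 fold change was -0.35 with an adjusted p of 0.283 without FLOX+GCI replicate 1 and 0.88 with an adjusted p of 0.0290 without FLOX+GCI replicate 2. Gfap, the intermediate filament gene of astrocytes, was likewise lowest in FLOX+GCI replicate 1 and highest in replicate 2, at 395.8 and 900.3 CPM. It was at 502.4 and 560.2 CPM in the knockouts. Of the 6 astrocyte markers, only Gfap had both of these positions. Aqp4 shared the lowest library and Aldh1l1 the highest, whereas Slc1a3, Gja1 and Aldoc were lowest in FLOX+GCI replicate 2. The part of Gfap in the Cdkn1a values was not tested.

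The promoters of the p53 targets Cdkn1a and Ccng1 are shown as examples with a p53 half-site (named only, as its letters include ambiguous bases), which 7.13% of all promoters hold. RefSeq lists 2 start sites for Cdkn1a, and the promoter below is that of the upstream one, at chr17:29090729-29090978 on the plus strand. The promoter of Ccng1 is at chr11:40755287-40755536 on the minus strand. Capitals mark the half-sites and, in Ccng1, CCAAT boxes.
Cdkn1a: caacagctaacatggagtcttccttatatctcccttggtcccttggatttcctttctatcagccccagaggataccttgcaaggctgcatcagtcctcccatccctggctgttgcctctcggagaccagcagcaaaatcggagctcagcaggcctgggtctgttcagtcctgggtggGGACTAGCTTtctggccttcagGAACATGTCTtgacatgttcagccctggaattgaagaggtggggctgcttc
Ccng1: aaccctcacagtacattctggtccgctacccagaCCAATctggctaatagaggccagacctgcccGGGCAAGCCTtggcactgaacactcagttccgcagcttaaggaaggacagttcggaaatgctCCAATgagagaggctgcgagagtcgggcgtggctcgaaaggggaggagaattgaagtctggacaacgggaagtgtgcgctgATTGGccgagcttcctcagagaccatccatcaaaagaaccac
In Cdkn1a the half-sites began at -73 and -51, and in Ccng1 one began at -185. The downstream promoter of Cdkn1a held none of the marked motifs, which says only that these letters are not in that window. A half-site was found in 4 of the 9 kinase inhibitors and p53 and stress genes with a promoter in the table, the others being Mdm2 and Trp53. Proliferation genes held it too, namely 1 of the 10 replication genes with a promoter, Tyms. So did 2 of the 12 genes of mitosis, mitotic cyclins and Cdk1 with a promoter, Bub1b and Birc5.

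Cdkn1b (mm9 chr6:134870419-134875531) encodes p27, which keeps cells out of the cycle. It was at 28.5 and 23.7 CPM in the controls and at 30.9 and 35.1 CPM in the knockouts. Both knockout libraries were above both controls, with means of 26.1 ± 3.37 CPM and 33.0 ± 2.95 CPM (SD, n = 2 each). The log2 fold change was 0.34 with a standard error of 0.12 and an adjusted p of 0.260, the log2 fold change being 0.21 without FLOX+GCI replicate 2.

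Cdkn1c, an imprinted gene that encodes p57, was at 3.67 and 2.11 CPM in the controls and at 2.72 and 1.30 CPM in the knockouts. Replicate 1 was higher than replicate 2 in both genotypes and the groups overlapped, with a log2 fold change of -0.52, a standard error of 0.41 and an adjusted p of 0.530. Leaving out 1 library gave log2 fold changes between -1.16 (without FBN-ARO-KO+GCI replicate 1) and -0.06 (without FLOX+GCI replicate 1). The 6 markers of endothelial cells summed to 239.5, 164.8, 194.6 and 137.1 CPM in the same order of libraries, so that their sum and Cdkn1c ranked the 4 libraries alike, all 6 having log2 fold changes below 0 with a median of -0.34, and their part in the Cdkn1c values was not tested. Cdkn2c, which encodes the inhibitor p18 of Cdk4 and Cdk6, was at 2.32 and 1.79 CPM in the controls and at 1.84 and 1.88 CPM in the knockouts, within the range of the controls.

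The G1 genes couple growth signals to the cycle, with D-type cyclins activating Cdk4 and Cdk6. Ccnd2, the cyclin D that hippocampal progenitors depend on, was at 108 and 98.2 CPM in the controls and at 115 and 119 CPM in the knockouts. Its groups did not overlap, and the log2 fold change was 0.18 with a standard error of 0.08 and an adjusted p of 0.309, the log2 fold change being 0.11 without FLOX+GCI replicate 2. Cdk4 was at 46.5 and 50.2 CPM in the controls and at 44.0 and 41.0 CPM in the knockouts, with both knockout libraries lower, a log2 fold change of -0.19 and an adjusted p of 0.345. Ccnd1 was at 68.2 and 46.6 CPM in the controls and at 59.98 and 65.9 CPM in the knockouts. The control libraries lay on either side of the knockout libraries, with a log2 fold change of 0.13, and the same held for Ccnd3 at 23.7 and 21.1 CPM against 21.5 and 21.2 CPM. Cdk6, with 6 and 7 counts in the controls and 11 and 11 counts in the knockouts, was below the filter on low counts. All of these G1 genes overlap an annotated gene on the opposite strand, as do 12 of the 45 genes in all, and since the sources do not say whether counting used strand, reads of the overlap cannot be assigned.

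The replication genes make the licensing helicase (Mcm2 to Mcm7), the polymerase clamp (Pcna) and the enzymes of nucleotide supply (Rrm1, Rrm2, Tyms). Of the 12, 4 were above and 8 below a log2 fold change of 0, and their summed level was 98.7 and 99.4 CPM in the controls and 96.7 and 97.4 CPM in the knockouts. Mcm2 (mm9 chr6:88833469-88848774) was at 6.90 and 8.88 CPM in the controls and at 5.40 and 4.68 CPM in the knockouts. It was the only helicase subunit whose groups did not overlap, with means of 7.89 ± 1.4 CPM and 5.04 ± 0.511 CPM (SD over 2 libraries each), a log2 fold change of -0.65, a standard error of 0.19 and an adjusted p of 0.245.

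The other helicase subunits did not share the position of Mcm2. Mcm3 and Mcm5 were highest in FLOX+GCI replicate 2, at 5.88 and 7.71 CPM, and at 3.83 and 4.75 CPM in FLOX+GCI replicate 1. In the knockouts Mcm3 was at 4.22 and 3.86 CPM and Mcm5 at 5.01 and 5.50 CPM, within the range of the controls. Mcm6 was the reverse, at 19.3 CPM in FLOX+GCI replicate 1 and 11.9 CPM in replicate 2, with 18.9 and 16.4 CPM in the knockouts. Mcm4 and Mcm7 had log2 fold changes of -0.10 and -0.13, with standard errors of 0.15 and 0.18.

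Of the nucleotide enzymes, Rrm1 and Rrm2 encode the large and the small subunit of ribonucleotide reductase. Rrm1 was at 20.4 and 18.3 CPM in the controls and at 21.3 and 20.7 CPM in the knockouts. Rrm2, the subunit made in S phase, was scarcer at 0.352 CPM per kb against 5.04 for Rrm1, averaged over the libraries, with 16 and 16 counts in the controls and 28 and 28 counts in the knockouts. Both were higher in the knockout libraries, with a log2 fold change of 0.48, a standard error of 0.36 and an adjusted p of 0.508 for Rrm2 and a log2 fold change of 0.12 for Rrm1. Tyms, thymidylate synthase, was at 2.00 and 1.62 CPM in the controls and at 1.39 and 1.2 CPM in the knockouts, lower in both knockout libraries, with a log2 fold change of -0.48 and an adjusted p of 0.419. Pcna, the transcription factor E2f1 and the licensing inhibitor Gmnn had log2 fold changes of 0.10, -0.01 and -0.24, each with overlapping groups.

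The genes of mitosis had low counts in all 4 libraries, at most 91 in a library. Mki67, the gene of the proliferation marker Ki-67, had 11 and 16 counts in the controls and 20 and 14 counts in the knockouts, which is 0.0538 CPM per kb averaged over the libraries, against 33.5 CPM per kb for Ccng1. Top2a, the topoisomerase that untangles chromosomes, had 10 and 15 counts in the controls and 20 and 15 counts in the knockouts. The groups overlapped for both, with log2 fold changes of -0.00 and 0.15 and a standard error of 0.44 for each, so that a difference as large as the standard error was not detectable at this depth. The 10 mitosis genes together summed to 6.94 and 7.34 CPM in the controls and 6.55 and 7.24 CPM in the knockouts.

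The best-counted mitosis genes were Bub1b, of the spindle checkpoint, with 71 and 60 counts in the controls and 64 and 91 in the knockouts, and Aurka, a spindle kinase, with 40 and 45 counts in the controls and 59 and 47 in the knockouts. Their log2 fold changes were -0.07 and -0.01. Plk1 and Birc5 had log2 fold changes of -0.17 and -0.28, and both had overlapping groups. Bub1, Aurkb, Cdc20 and Ube2c were below the filter on low counts. Bub1 had 3 and 5 counts in the controls and 3 and 2 in the knockouts, Aurkb 4 and 3 against 5 and 2, and Cdc20 8 and 8 against 9 and 15. Ube2c, which tags mitotic cyclins for destruction, had 0 and 1 counts in the controls and 4 and 0 in the knockouts.

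The mitotic cyclins and their kinase were as scarce. Ccnb1, cyclin B1, had 2 and 4 counts in the controls and 0 in each FBN-ARO-KO+GCI library, which allows up to 0.0905 and 0.102 CPM there, so no fold is given. Cdk1, its kinase, had 6 and 6 counts in the controls and 3 and 11 in the knockouts. Ccnb2 had 9 and 10 counts in the controls and 12 and 14 in the knockouts, in libraries that were also deeper, and its log2 fold change was 0.13. Ccna2, the cyclin of S phase and early mitosis, had 21 and 30 counts in the controls and 21 and 21 in the knockouts. On the CPM scale it was lower in both knockout libraries, at 0.634 and 0.717 against 0.838 and 1.22, with a log2 fold change of -0.60, a standard error of 0.38 and an adjusted p of 0.431, the log2 fold change being -0.32 without FLOX+GCI replicate 2.

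Genes of mitosis share promoter elements, and those of Cdk1 and Top2a are shown as examples. The element CHR (searched as TTTGAA or TTCGAA on both strands) and CCAAT boxes are known to recruit the complexes that hold such genes off in resting cells and turn them on in dividing ones. The Cdk1 promoter is at chr10:69352913-69353162 and the Top2a promoter at chr11:99024190-99024439, both on the minus strand. Capitals mark CHR elements, CCAAT boxes and, in Cdk1, an E2F site (searched as TTTCGCGC, TTTGGCGC or TTTCCCGC on both strands).
Cdk1: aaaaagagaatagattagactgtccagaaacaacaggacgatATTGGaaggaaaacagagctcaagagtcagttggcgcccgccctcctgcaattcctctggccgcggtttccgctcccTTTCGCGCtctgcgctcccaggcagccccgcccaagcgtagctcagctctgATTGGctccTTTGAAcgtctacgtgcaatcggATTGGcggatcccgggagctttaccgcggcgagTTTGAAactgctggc
Top2a: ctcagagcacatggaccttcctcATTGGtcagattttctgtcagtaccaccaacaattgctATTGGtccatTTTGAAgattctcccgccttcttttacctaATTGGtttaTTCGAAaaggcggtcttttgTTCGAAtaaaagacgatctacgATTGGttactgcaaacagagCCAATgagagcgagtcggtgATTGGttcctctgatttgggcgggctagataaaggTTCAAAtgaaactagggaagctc
Of the 14 genes of mitosis, mitotic cyclins and Cdk1, 12 had a promoter in the table, and 11 of these held a CCAAT box and 7 a CHR, where 33.8% and 17.1% of all promoters do. The 9 kinase inhibitors and p53 and stress genes with a promoter had a CHR in 0 cases and a CCAAT box in 6. An E2F site, present in 1.53% of all promoters, was found in 3 of the 10 replication genes with a promoter.

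The cyclins that open S phase were better measured. Ccne1, which encodes cyclin E1, was at 17.5 and 16.4 CPM in the controls and at 16.7 and 18.1 CPM in the knockouts, with a log2 fold change of 0.04 and a standard error of 0.12. Ccne2 was at 3.31 and 2.15 CPM in the controls and at 3.14 and 3.21 CPM in the knockouts. Its groups overlapped, since FLOX+GCI replicate 1 was the highest and replicate 2 the lowest library, and the log2 fold change was 0.22. Cdk2, the kinase of both cyclins, had 55 and 59 counts in the controls and 96 and 59 in the knockouts, with overlapping groups and a log2 fold change of 0.10.

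The controls differed from each other in many of these genes. The log2 ratio between the FLOX+GCI libraries was larger in size than the genotype's log2 fold change in 24 of the 38 genes (63.2%), against 45.6% of all genes tested. It was 1.22 for Cdkn1a, -0.77 for Cdkn1c, -0.70 for Mcm6 and 0.69 for Mcm5, replicate 2 relative to replicate 1. FLOX+GCI replicate 2 was the highest or the lowest of the 4 libraries in 29 of the 38 genes (76.3%), against 56.7% of all genes. Between the FBN-ARO-KO+GCI libraries the ratio was the larger in 17 genes (44.7%), against 44.7% of all genes. Many of the 38 genes had few counts, for which the ratio of 2 libraries also carries counting error.

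**Figure D3:**
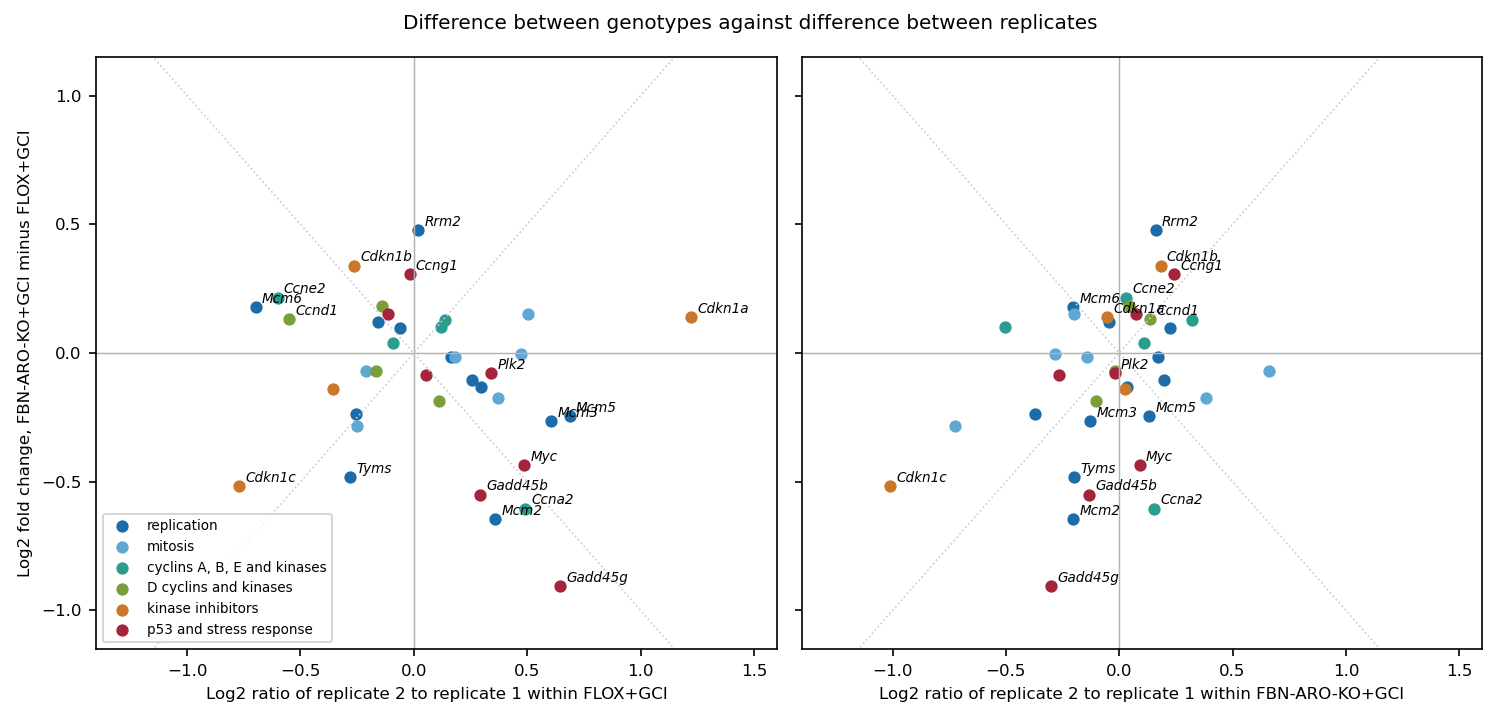
Log2 ratio of replicate 2 to replicate 1 (horizontal axis) within FLOX+GCI (left) and within FBN-ARO-KO+GCI (right) and log2 fold change of FBN-ARO-KO+GCI relative to FLOX+GCI (vertical axis) of the 38 genes, with dotted lines where both are equal in size. In 24 genes, Cdkn1a at 1.22 among them, the ratio between the controls is the larger, and in 17 genes that between the knockouts.

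The fold changes followed the GC content of the transcripts. Over 14032 genes with a transcript sequence, Spearman's rho between GC content and log2 fold change was -0.548, and over the 38 genes of the list it was -0.572. These are correlations across genes of the same 4 libraries, and genes are not independent replicates. The median log2 fold change of all genes was 0.16 at 40 to 45% GC and -0.14 at 55 to 60% GC, and of the listed genes 0.23 (4 genes) and -0.35 (8 genes) in the same ranges. Between replicates of a genotype, replicate 2 relative to replicate 1, rho was -0.479 for all genes and -0.243 for the listed genes in the knockouts, and 0.0999 and 0.207 in the controls.

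The genes with the smallest p-values lay on this trend or beyond it. Ccng1 and Cdkn1b, both higher in FBN-ARO-KO+GCI, had GC contents of 40.8% and 43.1%. Mcm2, Gadd45b and Gadd45g, all lower, had 55.5%, 56.7% and 59.9%. With GC content and transcript length fitted as an offset, the log2 fold change was 0.13 for Ccng1, 0.20 for Cdkn1b, -0.52 for Mcm2, -0.34 for Gadd45b and -0.62 for Gadd45g. The last 3 kept an unadjusted p under 0.05 by edgeR's quasi-likelihood test (3 of 38 genes, 7.89%, against 11.4% of all genes tested in either direction). By direction, 3 listed genes were lower and 0 higher at that level, against 506 lower and 1143 higher of all 14527 genes tested. Of the list, 0 genes had an adjusted p under 0.05. The median of the kinase inhibitors was then 0.13, and E2f1, Aurka, Ccne2, Ccnd3, Cdkn2c and Trp53 changed sign, with E2f1 at 0.19 and Ccnd3 at 0.15.

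**Figure D4:**
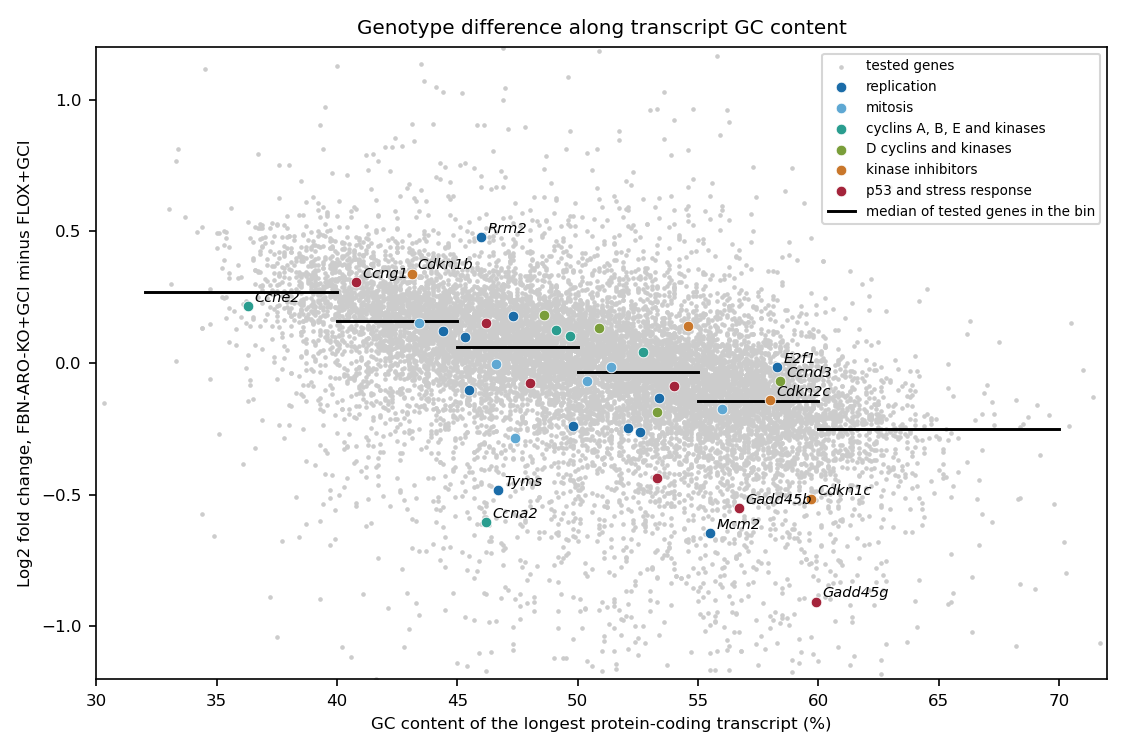
GC content of the transcript in percent (horizontal axis) against log2 fold change of FBN-ARO-KO+GCI relative to FLOX+GCI (vertical axis), with all genes in gray, the genes of the list in color and the median of each GC range of all genes as a line. The medians run from 0.27 below 40% GC to -0.25 above 60% GC, and the plot leaves out 98 of the 14032 genes.

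Other genes of the same pathways, taken from wider lists, gave 0 calls at an adjusted p of 0.05 by edgeR's quasi-likelihood test. Of 28 other p53 targets tested, 12 were above and 16 below 0, and 4 (14.3%) had an unadjusted p under 0.05, against 16.5% of all genes tested. Sesn1, which restrains growth signaling, Rrm2b, a ribonucleotide reductase subunit induced by p53, and Apaf1, of the apoptosome, had log2 fold changes of 0.27, 0.38 and 0.28. Btg2, an antiproliferative gene, was at 35.0 and 24.0 CPM in the controls and at 23.4 and 18.8 CPM in the knockouts, with a log2 fold change of -0.48. These p53 targets lay on both sides of 0, as Cdkn1a, Ccng1, Mdm2 and Plk2 did.

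Of 38 other replication and mitosis genes tested, 17 were above and 21 below 0, and 2 (5.26%) had an unadjusted p under 0.05, where 16.5% of all genes did. These were Nuf2, of the kinetochore, at a log2 fold change of 0.82 and the checkpoint kinase Ttk at -1.4, with standard errors of 0.27 and 0.53. They lay in opposite directions. Of 20 other G1 regulators tested, 15 were above and 5 below 0, with 4 (20%) higher at an unadjusted p under 0.05, against 8.72% of all genes. With GC content and length as an offset, 2 of the 20 were higher at that level, as were 1143 of all 14527 genes tested. Rbl2, the pocket protein p130 of resting cells, was at 66.7 and 62.4 CPM in the controls and at 81.8 and 80.8 CPM in the knockouts, with a log2 fold change of 0.33, a standard error of 0.08 and an adjusted p of 0.238. The others were the retinoblastoma gene Rb1, Ccnh and Tfdp2, at log2 fold changes of 0.30, 0.25 and 0.25, which were 0.12, 0.06 and 0.12 with GC content and length as an offset, whereas Rbl2 was 0.26.

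The summed markers of dentate progenitors, microglia, astrocytes and oligodendrocyte progenitors overlapped between genotypes, whereas those of some other cell types did not. The 8 genes of dentate progenitors and neuroblasts summed to 105.8 and 91.5 CPM in the controls and to 105 and 112.3 CPM in the knockouts. Of the 7 that were tested, 2 had an unadjusted p under 0.05 by edgeR, against 16.5% of all genes, with Nes, of progenitors, at a log2 fold change of -0.49 and Neurod1, of neuroblasts and granule neurons, at 0.50. Dcx, of neuroblasts, was at 14.5 and 14.97 CPM in the controls and at 14.3 and 14.0 CPM in the knockouts. Sums ranged over the libraries from 341 to 395 CPM for microglia, 2628 to 2894 CPM for astrocytes and 239.5 to 268 CPM for oligodendrocyte progenitors. Of the microglia markers, 3 were above and 3 below a log2 fold change of 0. Of the astrocyte markers, 4 were above and 2 below, Aldh1l1 at -0.30 and Gfap at -0.29. Of the oligodendrocyte progenitor markers, 1 was above, Gpr17 at 0.47, and 5 were below. The leukocyte markers summed to between 20.2 and 30.1 CPM, also with overlap. Both knockouts were higher in the sum of oligodendrocyte markers, at 3886 and 4400 CPM in the controls against 4453 and 4579 CPM. The sum of neuron markers was also higher in both knockouts, at 11680 and 11520 CPM against 11860 and 12480 CPM. Of the 6 neuron markers, however, 4 were above and 2 below a log2 fold change of 0. Snap25 was at 0.20 and Rbfox3 at -0.17. Both knockouts were lower in the sum of choroid plexus markers, at 62.1 and 50.02 CPM against 42.8 and 49.6 CPM. Of the 4 choroid plexus markers tested, 3 were above a log2 fold change of 0 and 1 was below. Kl, the highest of the list, was at 0.09. The 1 below was Ttr, at 26.5 and 21.9 CPM in the controls and 8.93 and 15.6 CPM in the knockouts. Both knockouts were also lower in the erythroid markers, at 4.15 and 3.08 CPM against 1.84 and 2.29 CPM. All of that sum was Alas2, since Hba-a1, Hba-a2, Hbb-b1 and Hbb-b2 were listed at 0. The part of these cells in the values of the list was not tested.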

How the data were processed

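Total RNA of the hippocampus was sequenced as 50 nt single-end reads. Per the submitters' processing notes, bcl2fastq, TopHat2 2.0.8b and HTSeq were used with the genome build mm9. The authors deposited raw counts per gene symbol, without normalization, and neither the strand setting nor the annotation release is given in the sources used here. The 5 HTSeq counters of unassigned reads were left out. Groups and replicate numbers came from the sample titles.

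Genotypes were compared over all 4 libraries with edgeR 4.0.16 in R 4.3.3, using TMM normalization, filterByExpr (minimum count 10), the quasi-likelihood test and Benjamini-Hochberg adjustment over all 14527 genes tested at 0.05. A standard error is the size of a fitted log2 fold change over the square root of its F statistic. An exact permutation test of 2 against 2 libraries cannot give a two-sided p under 0.333. Ratios between libraries of a group used CPM with 0.1 added. Below the filter, only counts are reported. Depth ranged from 24333396 to 33076795 counts on genes per library.

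The genes, and the wider and marker lists, were chosen with earlier results of these data known. Named were all 45 genes, the 4 genes of each wider list with the smallest unadjusted p (mean count 10 or more), and the highest and the undetected genes of each marker list. One gene that this rule names is not reported here. Pidd1 and Tigar were matched under the older symbols Lrdd and 9630033F20Rik. Positions, lengths and GC content came from GENCODE M1 on NCBIM37, the same build as mm9, using the longest protein-coding transcript, and promoters from RefSeq on GRCm38.p6. Alternatives were DESeq2 1.42.0, DESeq-style size factors, the likelihood ratio test, scaling by library totals alone, no filter beyond 1 count, a filter at a mean of 50 counts, a block for the replicate number, an offset for GC content and transcript length (natural splines with 5 degrees of freedom, with and without the block), and the omission of each library. The procedure was tested on simulated counts.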

Additional observations from a re-analysis of the deposited data

How the results depend on the processing

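The calls depended on the test and on single libraries. Of all genes tested, 2 were called, against 285 with DESeq2, which gave an adjusted p to 5796 genes, 294 with the likelihood ratio test and 5 with every gene of at least 1 count. Leaving out 1 library gave 0 to 193, with 193 without FLOX+GCI replicate 1 and 127 without FLOX+GCI replicate 2. Of the listed genes 0 were called, against 1 (Gadd45g) with the likelihood ratio test and 0 to 1 with a library left out (Gadd45g without FLOX+GCI replicate 1, Cdkn1a without FLOX+GCI replicate 2). The number at an unadjusted p under 0.05 was 5, against 3 with GC content and length and 2 to 13 with a library left out. The median log2 fold change of the proliferation genes was -0.01, against -0.051 with library totals only, -0.038 with every gene of at least 1 count, -0.047 with a mean of at least 50 counts and -0.095 to 0.035 with a library left out. That of the kinase inhibitors was -0.00, against 0.13 with GC content and length and -0.05 to 0.04 with a library left out. That of the p53 and stress genes ranged from -0.24 to -0.062 with a library left out. Library totals moved the median of all genes by -0.04. The cause of these differences was not tested.

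The replicate numbers were treated as numbers only, given a correlation of 0.129 across the genes tested. It relates the deviations of the 2 replicate 1 libraries from their group means. With the replicate number as a block, 184 of all genes and 1 listed gene were called (Gadd45g, log2 fold change -0.88, adjusted p 0.0366), and Mki67 was at 0.0046. With the block and GC content and length together, 1 gene of all was called, 0 listed genes were called, 3 had an unadjusted p under 0.05 and the median of the kinase inhibitors was 0.13. E2f1 and Ccnd3 were at 0.19 and 0.15 with GC content and length, alone and with the block. In the same order, Aurka was at 0.050 and 0.052, Cdkn2c at 0.060 and 0.063, Trp53 at 0.034 and 0.032, and Ccne2 at -0.036 and -0.024.

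Of 485 fits of single genes, 438 kept direction and side of the threshold, 4 passed it and 43 changed sign, which 15 of the 38 genes never did. The 438 include all 38 DESeq2 fits, of which only 6 had an adjusted p. The rest of these were counted as not past the threshold, so that only their direction was compared. With every gene of at least 1 count, Mki67 was at 0.0005. With a library left out, the log2 fold change ranged from -0.54 to 0.075 for Mcm3, -0.23 to 0.028 for Mcm4, -0.55 to 0.14 for Mcm5, -0.13 to 0.57 for Mcm6, -0.27 to 0.022 for Mcm7, -0.017 to 0.20 for Pcna, -0.10 to 0.067 for E2f1, -0.25 to 0.30 for Mki67, -0.12 to 0.48 for Top2a, -0.45 to 0.23 for Bub1b, -0.11 to 0.083 for Aurka, -0.41 to 0.054 for Plk1, -0.82 to 0.079 for Birc5 and -0.076 to 0.32 for Ccnb2. It ranged from -0.015 to 0.092 for Ccne1, -0.065 to 0.56 for Ccne2, -0.19 to 0.34 for Cdk2, -0.12 to 0.44 for Ccnd1, -0.15 to 0.018 for Ccnd3, -0.35 to 0.88 for Cdkn1a, -0.32 to 0.060 for Cdkn2c, -0.23 to 0.042 for Trp53 and -0.24 to 0.10 for Plk2. A group left with 1 library was assumed to vary like the other. Depth limits the mitosis genes most, since 4 of the 10 were below the filter and Mki67 had at most 20 counts in a library.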
